A study of Mus musculus with 16 samples.

Results

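Retinal pigment epithelium (RPE) and neurosensory retina (NSR) were compared in mice injured by bright light. The comparison rests on 8 of the 16 arrays of the series, 4 of isolated RPE and 4 of NSR, chosen by the sample titles that mark exposed animals and not by any measured value. The quantity is the deposited log2 level in RPE minus that in NSR, taken for each of 19938 genes. All mice were male Balb/cJ, an albino strain, and 10 weeks old. The exposed mice spent 18 h under cool white fluorescent lamps at 10000 lux and were killed 4 h later, while 4 control mice stayed on a 12-hour cycle of light and dark. Each mouse gave 1 RPE and 1 NSR array, and the labels give both the same mouse identifier, so arrays of the same number in a group of mice come from the same animal. Bright light and the altered lighting schedule came together in the exposed group and cannot be told apart. The 8 arrays of control mice, which share no array with the exposed contrast, served to ask which differences between the tissues stand after the injury.

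The RPE is a single sheet of epithelial cells between the photoreceptors and the choroid. It turns all-trans retinoids back into the 11-cis form that opsins need, engulfs the tips of outer segments shed each day, and moves ions, water, glucose and lactate between blood and retina. The neurosensory retina holds rods and cones, the bipolar, horizontal, amacrine and ganglion cells behind them, and Müller glia. Excess light bleaches visual pigment, injures photoreceptors and starts glial and inflammatory responses, and albino animals are sensitive to it because no melanin screens their eyes.

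In a principal component analysis of the exposed arrays, 91.3% of the variance lay on the axis that divides RPE from NSR and 2% on the next. Of 10 markers that define the RPE, 8 were higher in RPE, namely Rpe65, Lrat, Rdh5, Ttr, Kcnj13, Slc16a8, Mitf and Dct. Best1, a chloride channel of the RPE, and Cldn19, its tight junction claudin, were not called: Best1 lay at 5.62 to 5.92 in RPE and 5.45 to 5.75 in NSR. Best1 was at the edge, since it was called higher without RPE light 1 and RPE light 2 (log2 0.29, limma adjusted p = 3.16e-02) and with each array centred on its median (0.23, 3.82e-02), against 0.20 (8.12e-02). All 6 measured rod markers (Gnat1, Pde6b, Sag, Nrl, Rp1 and Cnga1) were higher in NSR, and rhodopsin was not analysed here. Some RPE arrays carried more signal of other tissues than their replicates. The median level of 23 rod genes was 8.58, 8.11, 7.38 and 7.87 in RPE light 1 to 4, against 11.01 to 11.26 in exposed NSR. For 15 bipolar cell genes that median reached 7.23 in RPE light 1, and its 3 replicates ran from 6.38 to 6.50. Krt12, a keratin of the corneal epithelium, stood at 10.95 in RPE light 2, while its 3 replicates ran from 6.65 to 6.86. In RPE control 2 the median of 15 lens genes was 7.48, against 6.35 to 6.57 in its replicates. Its median of 18 fibroblast and pericyte genes was 7.64, against 6.98 to 7.20. For the change of the contrast, RPE control 2 was therefore left out together with RPE light 1 and RPE light 2 in 1 alternative. The part of these signals in the results was not tested, and counts of members called without RPE light 1 and RPE light 2 are given beside lists where they differ by more than 1.5 times or by 3 genes or more.

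In exposed mice 11046 of 19938 genes differed between RPE and NSR (55.4%) by limma at an adjusted p under 0.05, a moderated linear model with Benjamini-Hochberg adjustment over all genes. Of these, 6471 genes were higher in RPE (32.5%) and 4575 were lower (22.9%), and 3038 differed at least 2-fold (15.2%). Counts of list members called in exposed mice stand beside these shares throughout. The 4 RPE arrays all lay above the 4 NSR arrays for 6037 genes (30.3%) and all below for 4305 (21.6%). The contrast is of whole tissue, in which fewer cells of a type and less RNA per cell cannot be told apart. Without RPE light 1 and RPE light 2, 10330 genes were called. The share of calls that were higher in RPE was 58.6%, but 72.6% when each array was centred on the median of all its probe clusters, which moved the median difference of all genes from 0.08 to 0.20 on the log2 scale.

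Most tissue contrasts stood after the injury. In control mice 10988 genes differed (55.1%), 6151 higher (30.9%) and 4837 lower (24.3%) in RPE. In all, 8864 genes were called in the same direction in both groups of mice, 4988 higher and 3876 lower in RPE. They are 80.2% of the calls in exposed and 80.7% of the calls in control mice. Among differences of at least 2-fold, 2499 were shared in direction, 82.3% of those in exposed and 76.3% of those in control mice, where 3274 genes passed (16.4%). The change of the contrast itself was tested across all 16 arrays, as the RPE minus NSR difference of exposed mice minus that of control mice. It was called for 2635 genes (13.2%), 1029 towards RPE (5.16%) and 1606 towards NSR (8.05%). Changes called on gene lists stand beside these shares. Of the 8864 contrasts shared in direction, 7218 had no called change, 1152 were narrower and 494 wider after light. Another 2034 genes were called in exposed mice only, but the change of the contrast was called for 405 of them. Of 1976 genes called in control mice only, it was called for 416. In 148 genes the contrast was called in opposite directions, and for all 148 the change was called too.

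**Figure D1:**
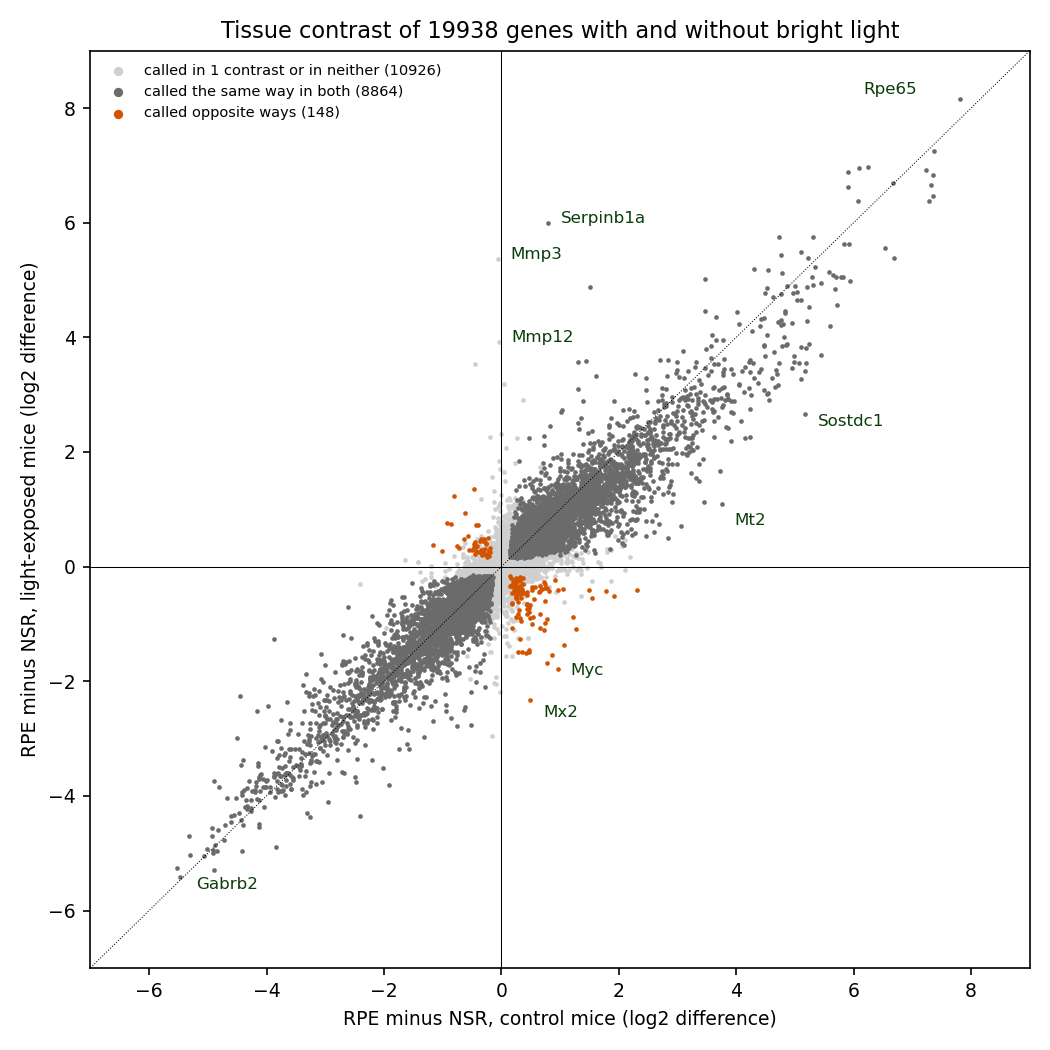
Each point is 1 of 19938 genes, with the log2 difference RPE minus NSR in control mice on the x axis and in light-exposed mice on the y axis (means of 4 arrays per group); the dotted line marks equal contrasts. Most genes lie along that line, from Gabrb2 at -5.48 and -5.41 to Rpe65 at 7.81 and 8.17, while Mmp3 and Mmp12 lie near 0 on the x axis only and 148 genes, drawn in orange, were called in opposite directions.

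The widest contrast on the RPE side belonged to the retinoid visual cycle. Rpe65, the isomerase that makes 11-cis retinol, stood at 12.42, 12.26, 11.99 and 12.42 in RPE light 1 to 4 and at 4.08, 3.93, 4.36 and 4.06 in NSR light 1 to 4. The groups lay far apart, and NSR was below 5.63, a level that 25% of all genes do not reach. Near that floor the size of a fold is uncertain, which in exposed mice also touches Lrat, Dct, Tyr, Slc26a7, Car12, Cldn1, Gabrb2, Tac1, Gria2, Arr3, Opn1mw, Scgn, Calb1, Abca8a, Nqo1, Slc7a11, Mmp3, Serpinb1a, Macc1, Nmu, Il6, Dcn, Sult1c1, Ermn and Sema3c. Rpe65 was 287-fold higher in RPE (log2 8.17, SE 0.12, limma adjusted p = 1.06e-11) and 224-fold in control mice. Lrat, which esterifies retinol to feed that step, was 100.5-fold higher in exposed mice and 160-fold in control mice, and the narrowing of its contrast passed the test (log2 -0.67, SE 0.18, adjusted p = 2.04e-02). Without RPE light 1, RPE light 2 and RPE control 2 the change was as large (-0.70) but not called (adjusted p = 6.27e-02). Outside this list, Sult1c1, a sulfotransferase, was 126-fold, Ermn, a cytoskeletal protein, 122-fold, Cox8b, a subunit of cytochrome oxidase, 113-fold and Sema3c, a secreted guidance protein, 104-fold higher in exposed RPE.

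The visual cycle also shows where a contrast widened. Rgr, an opsin of RPE and Müller cells that helps recycle retinal, lay at 12.86 to 12.97 in exposed RPE and at 5.43 to 6.42 in exposed NSR. Its RPE level was nearly the same in control mice (13.06), while control NSR stood higher at 7.15, and its contrast widened from 60.0-fold to 118-fold. Rrh, the peropsin gene, and Rlbp1, the carrier of 11-cis retinoids in RPE and Müller glia, widened as well, from 11.1-fold to 21.9-fold and from 5.52-fold to 9.73-fold (adjusted p = 2.99e-05 and 1.02e-03 for the change). Rdh10 and Stra6, a retinol dehydrogenase and the receptor for retinol-binding protein, were higher in RPE by 2.75 and 4.64 on the log2 scale, and the contrast of Rdh10 had narrowed from 3.59. The photoreceptor members of the cycle went the other way: Rdh12, which reduces retinal in photoreceptors, was 13.3-fold, and Rbp3, which carries retinoids across the space between the tissues, 15.3-fold higher in NSR. In all, 11 of 15 visual cycle genes were higher and 4 lower in RPE, the same counts as in control mice. The list's median log2 difference was 3.28 against 2.46 in control mice, with all genes at 0.08 and 0.04, and both list medians are the values of Rlbp1. The median change of single genes on the list was 0.26. On this list 5 changes were called towards RPE and 4 towards NSR, beside 5.16% and 8.05% of all genes.

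Pigment genes stood as well, although the strain makes no melanin: tyrosinase is mutant in Balb/c mice, but its transcript is still made. Dct, Tyrp1 and Tyr, the 3 enzymes of melanin synthesis, were 153-fold, 46.9-fold and 31.5-fold higher in exposed RPE (SE 0.14, 0.09 and 0.12 on the log2 scale, limma adjusted p = 2.46e-11, 1.73e-11 and 1.47e-10). Dct lay at 12.53, 12.52, 12.45 and 12.49 in RPE light 1 to 4 and at 5.67, 4.89, 5.14 and 5.26 in NSR light 1 to 4, with no overlap. Of 16 melanosome and pigment genes, 15 were higher in RPE and 1 lower in both groups of mice. The exception is Slc24a4, an ion exchanger, 4.76-fold higher in NSR. The contrast of 7 of the 16 genes narrowed after light and that of 1 widened. Tyr went from 61.4-fold to 31.5-fold, Tyrp1 from 92.4-fold to 46.9-fold and Pmel, the scaffold of melanosome fibrils, from 18.9-fold to 12.2-fold. Mitf, the transcription factor that drives this program, was 8.63-fold higher against 13.6-fold in control mice, a change of -0.65 on the log2 scale (limma adjusted p = 2.48e-02). The change of Mitf was as large but not called with the mouse as a block (-0.65, adjusted p = 5.05e-02) and without RPE light 1, RPE light 2 and RPE control 2 (-0.70, 6.00e-02).

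MITF binds the M-box, searched here as TCATGTG on both strands, and the palindromic E-box CACGTG, and neither motif contains the other. RefSeq promoters of GRCm38.p6 (250 bases before to 50 after a start site) were found for 11 of the 16 pigment genes. The M-box was in 4 of their 14 promoters (28.6%), against 3.8% of all 32851 promoters, and CACGTG was in 28.6% against 7.2%. The 3 melanin enzymes are among the 4 genes of the list with an M-box. All 3 have it in the stretch before the start site, which is shown here. Sequences run 5′ to 3′ along the gene, and capitals mark the match on either strand.
Tyr, chr7:87493513-87493762 on the minus strand: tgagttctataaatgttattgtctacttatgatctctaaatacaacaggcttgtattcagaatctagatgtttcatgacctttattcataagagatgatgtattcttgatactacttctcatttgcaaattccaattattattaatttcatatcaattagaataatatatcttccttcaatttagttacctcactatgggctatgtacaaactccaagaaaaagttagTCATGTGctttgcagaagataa
Tyrp1, chr4:80833963-80834212 on the plus strand: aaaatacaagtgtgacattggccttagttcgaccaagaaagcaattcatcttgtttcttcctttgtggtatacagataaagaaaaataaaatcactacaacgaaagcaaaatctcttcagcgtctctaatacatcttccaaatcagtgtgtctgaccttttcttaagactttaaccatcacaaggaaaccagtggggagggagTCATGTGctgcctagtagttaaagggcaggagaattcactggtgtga
Dct, chr14:118052247-118052496 on the minus strand: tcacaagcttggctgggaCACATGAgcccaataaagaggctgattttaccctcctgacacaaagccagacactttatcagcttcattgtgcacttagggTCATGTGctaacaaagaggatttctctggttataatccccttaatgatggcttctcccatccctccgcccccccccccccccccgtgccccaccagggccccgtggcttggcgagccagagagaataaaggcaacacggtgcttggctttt

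Transporters and channels of the RPE stood. Of 18 such genes, 16 were higher in exposed RPE, beside 32.5% of all genes, and the other 2, Best1 among them, were not called. The median log2 difference was 2.76 against 2.80 in control mice. Slc26a7, a chloride and bicarbonate exchanger, was 98.6-fold higher (RPE 11.91 to 12.07, NSR 5.25 to 5.49). Its contrast and that of Clic6, a chloride channel protein, had widened from 59.9-fold and 27.1-fold, with Clic6 at 43.1-fold. Car12, a carbonic anhydrase, Slc4a5, a bicarbonate cotransporter, and Slc6a13, a transporter for GABA and taurine, had narrowed to 33.2-fold, 10.6-fold and 14.3-fold from 55.0-fold, 20.8-fold and 34.4-fold. For Kcnj13, the potassium channel Kir7.1, and Slc16a8, the lactate carrier of the RPE, at 17.4-fold and 6.95-fold, no change was called.

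The epithelial character of the RPE was seen in its junction and keratin genes, of which 12 of 15 were higher in exposed RPE and 1 lower. The shares over all genes were 32.5% and 22.9%. Cldn1, a tight junction claudin, was 41.7-fold higher (RPE 10.81 to 11.05, NSR 5.20 to 5.86) and had narrowed from 103-fold (adjusted p = 8.63e-05). Cdh3, P-cadherin, went the other way, from 19.7-fold to 36.4-fold (adjusted p = 5.58e-04), with RPE at 10.78 to 10.88. Krt8 and Krt18, the keratin pair of simple epithelia, kept contrasts of 15.6-fold and 4.38-fold. Jam3, a junctional adhesion molecule, narrowed from 6.77-fold to 2.41-fold. The 1 gene on the list higher in NSR was Tjp1, the scaffold ZO-1, with a log2 difference of -0.59.

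Secreted factors of the RPE kept their direction but lost size. Of 15 such genes 13 were higher in RPE and 1 lower in both groups of mice. The median log2 difference was 2.66 after light, which is the value of Sostdc1, against 3.84. The median change of single genes was smaller, at -0.57. The contrast of 9 genes narrowed and that of 1 moved towards RPE. Ttr, the carrier of thyroid hormone and retinol-binding protein, was 124-fold higher and Bmp4, a growth factor, 49.8-fold, with no change called for either. Sostdc1, an antagonist of BMP and Wnt signals, lay at 9.42, 9.41, 8.74 and 9.65 in RPE light 1 to 4 and at 6.80, 6.59, 6.66 and 6.52 in NSR light 1 to 4. These groups do not overlap, but control RPE stood at 11.91 to 12.00. Its contrast was 6.34-fold after light (log2 2.66, SE 0.16, limma adjusted p = 1.24e-07) against 36.1-fold in control mice (change -2.51, SE 0.20, adjusted p = 2.83e-07). Vegfa, which maintains the choroidal vessels, was 1.72-fold higher in RPE against 3.43-fold. Timp3, an inhibitor of metalloproteinases in Bruch's membrane, was 8.46-fold higher against 22.1-fold. Trf, transferrin, narrowed with no lower level in RPE: it lay at 12.92 to 13.00, as in control RPE, while NSR stood at 9.19 to 9.29 against 7.46 to 7.81, and the contrast went from 43.6-fold to 12.9-fold.

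**Figure D2:**
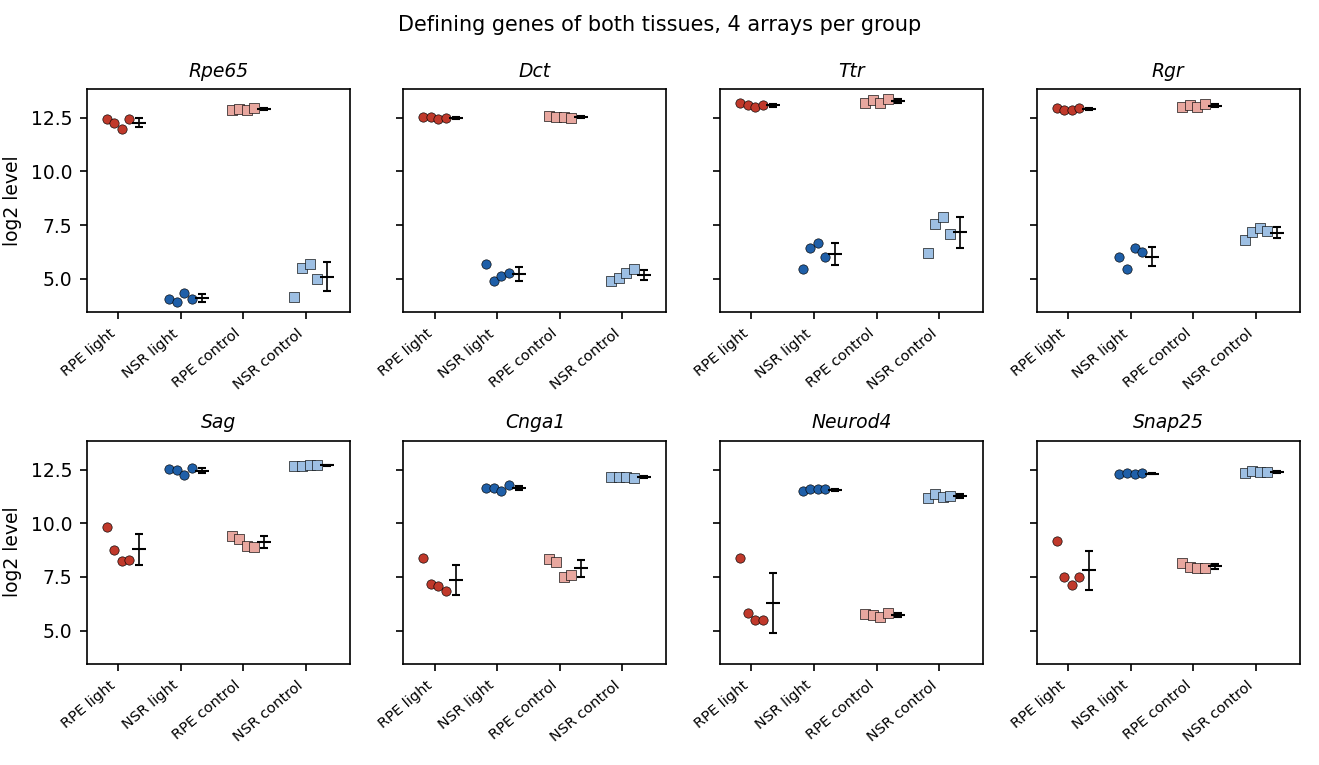
Log2 levels of 8 defining genes in each array (points), by tissue and treatment, with the mean and SD of 4 arrays beside them. Rpe65, Dct, Ttr and Rgr are high in RPE and Sag, Cnga1, Neurod4 and Snap25 high in NSR in both groups of mice, and RPE light 1 is the highest exposed RPE array for the last 4 genes.

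On the retinal side, the widest contrast was that of Gabrb2. Gabrb2, a GABA receptor subunit, lay at 10.37, 10.48, 10.22 and 10.43 in NSR light 1 to 4 and at 5.84, 5.33, 4.41 and 4.27 in RPE light 1 to 4. It was 42.6-fold higher in NSR (log2 -5.41, SE 0.29, limma adjusted p = 4.42e-08), with 44.5-fold in control mice. Neurod1 and Neurod4, transcription factors of photoreceptors and interneurons, were 39.1-fold and 38.5-fold higher in NSR. Neurod4 lay at 8.37, 5.81, 5.51 and 5.48 in RPE light 1 to 4 against 11.48 to 11.59 in NSR, so that RPE light 1 stood well above its replicates. Its change between exposed and control mice was 0.26 on the log2 scale and not called, and without RPE light 1 it turned to -0.43 (limma adjusted p = 1.78e-02). Without RPE light 1, RPE light 2 and RPE control 2, wider contrasts after light were called for Neurod4 (change -0.54, adjusted p = 5.04e-03), Neurod1 (-1.10, 1.58e-02), Vsnl1 (-1.02, 5.27e-03) and Mapk10 (-0.60, 3.02e-03). Vsnl1, Cadps, Rp1, Mapk10, Rit2 and Gria2 were 28.9-fold to 33.1-fold higher in NSR, and RPE light 1 was the highest RPE array for each of them.

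Rod genes stood: of 23 measured, 21 were lower in exposed RPE and 1 was higher, beside 22.9% and 32.5% of all genes. Their median log2 difference was -3.29 against -3.45 in control mice. Sag, the arrestin that quenches rhodopsin, stood at 12.52, 12.46, 12.26 and 12.56 in NSR light 1 to 4 and at 9.83, 8.75, 8.26 and 8.29 in RPE light 1 to 4, a 12.7-fold difference with no overlap (log2 -3.67, SE 0.29, limma adjusted p = 8.28e-07). Cnga1, a subunit of the cation channel gated by cGMP, and Pde6b, a subunit of the phosphodiesterase, were 19.2-fold and 16.9-fold higher in NSR. Rcvrn, recoverin, was 16.6-fold higher. For these 4 genes no change of the contrast was called, but without RPE light 1, RPE light 2 and RPE control 2 the contrast of Sag was called wider (change -0.56, adjusted p = 4.84e-02). The 6 changes called on the list all ran towards RPE, while without those 3 arrays 4 ran towards RPE and 3 towards NSR. They include Reep6, a membrane protein of rods, from a log2 difference of -3.76 to -2.68, and Fscn2, an actin bundler of photoreceptors, from 3.71-fold to 1.99-fold. The 1 rod gene higher in exposed RPE was Rgs9, which speeds the shutoff of the rod response: it lay at 11.64 to 11.73 in RPE and 11.29 to 11.38 in NSR, while in control mice NSR was higher by 1.39-fold. The change of its contrast was called (log2 0.81, SE 0.08, adjusted p = 2.62e-06), but after quantile normalization its difference in exposed mice was not (log2 0.09, adjusted p = 2.27e-01).

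Cone genes kept their direction with smaller folds at the opsins. Of 13 cone genes 11 were lower in exposed RPE and 1 higher (0 higher without RPE light 1 and RPE light 2). The shares over all genes were 22.9% and 32.5%. Opn1sw, the short-wavelength opsin, stood at 9.86, 9.76, 9.21 and 9.87 in NSR light 1 to 4 and at 6.62, 6.20, 5.87 and 6.19 in RPE light 1 to 4. Control NSR was at 11.83 to 11.90, and the log2 difference went from -4.43 to -3.45 (change 0.98, SE 0.24, adjusted p = 9.11e-03). Opn1mw and Arr3, the other cone opsin and cone arrestin, went from 12.6-fold to 5.15-fold and from 22.8-fold to 7.90-fold. Pde6c, the cone phosphodiesterase, widened: it was not called in control mice (log2 -0.13, but -0.31 and called after quantile normalization, adjusted p = 3.67e-02) and 2.01-fold higher in exposed NSR.

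CRX and OTX2, homeodomain factors of photoreceptors and RPE, bind the core TAATCC, which was in 7 of 17 promoters found for 17 of the 23 rod genes (41.2%), in 4 of 19 promoters of visual cycle genes (21.1%) and in 7.1% of all promoters. TGCTGA, part of the site of the rod factor NRL, was in 23.5% of the rod, 31.6% of the visual cycle and 19.5% of all promoters. Among promoters of cone genes the shares were 15.4% for TAATCC and 7.7% for TGCTGA, and among those of pigment genes 28.6% and 35.7%. The stretches before the start site of a pair of genes from each side of the contrast are shown, with TAATCC in capitals on either strand.
Rpe65, chr3:159598931-159599180 on the plus strand: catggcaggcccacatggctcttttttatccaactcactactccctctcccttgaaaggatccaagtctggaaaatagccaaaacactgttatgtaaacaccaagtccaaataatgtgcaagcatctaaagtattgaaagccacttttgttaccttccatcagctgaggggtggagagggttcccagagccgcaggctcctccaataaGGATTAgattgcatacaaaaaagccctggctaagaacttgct
Rgr, chr14:37049015-37049264 on the minus strand: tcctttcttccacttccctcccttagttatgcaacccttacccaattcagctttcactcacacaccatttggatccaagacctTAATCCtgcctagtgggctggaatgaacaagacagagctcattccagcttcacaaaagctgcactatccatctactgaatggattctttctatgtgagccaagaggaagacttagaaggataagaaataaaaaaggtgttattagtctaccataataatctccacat
Sag, chr1:87803430-87803679 on the plus strand: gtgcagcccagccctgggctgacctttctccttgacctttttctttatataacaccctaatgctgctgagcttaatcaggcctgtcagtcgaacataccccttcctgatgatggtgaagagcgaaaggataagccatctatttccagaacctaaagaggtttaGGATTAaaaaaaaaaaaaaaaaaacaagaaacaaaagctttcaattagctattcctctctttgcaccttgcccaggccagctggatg
Cnga1, chr5:72642753-72643002 on the minus strand: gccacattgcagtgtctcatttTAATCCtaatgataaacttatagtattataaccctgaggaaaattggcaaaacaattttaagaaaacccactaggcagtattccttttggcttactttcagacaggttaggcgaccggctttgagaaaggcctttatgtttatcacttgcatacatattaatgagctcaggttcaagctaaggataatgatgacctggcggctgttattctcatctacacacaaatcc

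Genes of the inner retina stood in much the same way. Of 15 bipolar cell genes 14 were lower in exposed RPE and the other 1 was not called (median log2 difference -2.11, and -2.19 without RPE light 1 and RPE light 2), and of 15 ganglion cell genes 13 were lower (median -2.61). Of 18 amacrine and horizontal cell genes 12 were lower and 2 higher (13 and 1 without RPE light 1 and RPE light 2). Scgn, a calcium binder of cone bipolar cells, was 13.4-fold, Calb1, calbindin of horizontal and amacrine cells, 24.3-fold, and Nefm, a neurofilament of ganglion cells, 19.8-fold higher in NSR. Among synapse genes 16 of 18 were lower in RPE (median -2.89). Snap25, a SNARE protein of the presynaptic side, lay at 12.27 to 12.35 in NSR and at 9.15, 7.47, 7.10 and 7.51 in RPE light 1 to 4, with RPE light 1 again the highest. It was 22.6-fold higher in NSR and 21.1-fold in control mice, but without RPE light 1, RPE light 2 and RPE control 2 its contrast was called wider after light (change -0.61, adjusted p = 9.02e-03). Syt1, the calcium sensor of vesicle release, widened from 5.30-fold to 20.5-fold (adjusted p = 4.56e-03). Gap43, a growth cone protein, widened from 5.54-fold to 13.5-fold, and Tac1, the precursor of substance P, from 14.3-fold to 29.9-fold.

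Müller glia genes were split between the tissues. Of 18, 9 were higher and 8 lower in exposed RPE, beside 32.5% and 22.9% of all genes. The list's median, 0.12 on the log2 scale, turned to -0.03 after quantile normalization. Glul, glutamine synthetase, lay at 12.59, 12.57, 12.69 and 12.70 in RPE light 1 to 4 and at 11.52, 11.61, 11.74 and 11.70 in NSR light 1 to 4. It was 2.00-fold higher in RPE after light, while in control mice both tissues stood near 12.6 and no difference was called (change 0.88, SE 0.09, adjusted p = 4.08e-06). Abca8a, a lipid transporter, and Car2, a carbonic anhydrase, were 5.40-fold and 14.9-fold higher in NSR, and Abca8a had narrowed from 15.7-fold. Outside this list, Spc25, a kinetochore gene, was 4.77-fold higher in NSR after light against 21.9-fold in control mice.

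Genes for the engulfment of outer segments were split between the tissues: of 15, 9 were higher and 5 lower in exposed RPE. Over all genes the shares were 32.5% and 22.9%. The receptor Mertk, the integrin subunits Itgav and Itgb5 and the membrane linker Ezr of the RPE's microvilli were 6.49-fold, 7.94-fold, 3.37-fold and 14.4-fold higher in RPE. The bridging ligands Mfge8 and Tulp1 were 2.29-fold and 8.95-fold higher in NSR. Mertk and Itgav had narrowed from 15.1-fold and 18.9-fold. Axl, a receptor related to Mertk, crossed over: it lay at 6.98 to 7.18 in RPE and 7.56 to 8.02 in NSR after light, but at 6.90 to 7.14 and 6.45 to 6.64 in control mice (change -1.15, SE 0.13, adjusted p = 7.90e-06).

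Of 17 genes of fatty acid oxidation and ketogenesis 16 were higher in RPE and 1 lower in both groups, with median log2 differences of 1.18 and 1.16. Acadl and Acaa2, enzymes of the oxidation cycle in mitochondria, were 10.5-fold and 8.00-fold higher. Of 16 glycolysis genes 10 were lower in RPE and 3 higher in both groups (13 and 1 after quantile normalization in exposed mice). On this list 4 changes towards RPE and 5 towards NSR were called. Among all genes 22.9% were lower and 32.5% higher in exposed RPE, with changes called for 5.16% towards RPE and 8.05% towards NSR. Hk2, hexokinase 2, and Slc2a3, a neuronal glucose transporter, were 4.31-fold and 4.64-fold higher in NSR, and Hk2 had narrowed from 7.54-fold. The lactate dehydrogenase subunits split: Ldhb was 2.36-fold higher in RPE and Ldha 1.80-fold higher in NSR.

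Of 18 lysosome genes 16 were higher in RPE, led by Ctsd, the protease that digests engulfed outer segments, at 6.62-fold (RPE 12.51 to 12.54, NSR 9.68 to 10.11). Antioxidant genes were 24 of 28 higher in RPE and 2 lower. Among all genes 32.5% were higher and 22.9% lower in exposed RPE. Cat, catalase, and Mgst1, a glutathione transferase of membranes, were 11.6-fold and 10.8-fold higher. Nqo1, a quinone reductase, had narrowed from 17.8-fold to 4.75-fold, with RPE at 6.95 to 7.76 after light against a control mean of 9.31. Slc7a11, a cystine carrier that feeds glutathione synthesis, was 11.5-fold higher in NSR against 4.06-fold in control mice. Mt2, a metallothionein that binds zinc and copper, lay at 12.39, 12.43, 12.49 and 12.33 in RPE light 1 to 4 and at 11.20, 11.33, 11.50 and 11.24 in NSR light 1 to 4. RPE was as high in control mice (12.43 to 12.48), but control NSR stood at 8.54 to 8.90, so the contrast went from 13.5-fold to 2.13-fold (change -2.66, SE 0.11, adjusted p = 2.22e-10). Mt1 and Mt2 are close relatives whose probes may read both transcripts, and Mt1 went from 7.56-fold to 2.41-fold.

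Sterol synthesis genes narrowed. All 15 genes were higher in control RPE, at a median log2 difference of 1.16, and 13 were higher and 1 lower in exposed RPE, at 0.43. For 10 genes a change was called, all towards NSR, beside 8.05% of all genes. Without RPE light 1 and RPE light 2, and after quantile normalization too, 10 were higher and 1 lower in exposed RPE. The list's median level was 8.39 to 8.64 in exposed RPE against 8.99 to 9.52 in control RPE, and 8.13 to 8.45 in all NSR arrays. Insig1, a sensor that restrains sterol synthesis, was 3.04-fold higher in control RPE and 1.17-fold in exposed RPE, where the call was lost with the mouse as a block (adjusted p = 5.62e-02). Hmgcs1, an early enzyme of the pathway, went from 2.42-fold to 1.16-fold. The small differences of Insig1 and Hmgcs1 in exposed mice (log2 0.23 and 0.21) were not called without RPE light 1 and RPE light 2 (adjusted p = 1.54e-01 and 1.45e-01) or after quantile normalization (0.08 and 0.01, adjusted p = 3.77e-01 and 8.66e-01). For cytosolic ribosomal proteins the change ran the other way. Of 17 genes 12 were higher in exposed RPE at a median of 0.27, against 3 higher and 3 lower in control mice. On this list 7 changes were called, all towards RPE, beside 5.16% of all genes. There were 8 higher in exposed mice without RPE light 1 and RPE light 2, and after quantile normalization 3 higher and 2 lower.

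**Figure D3:**
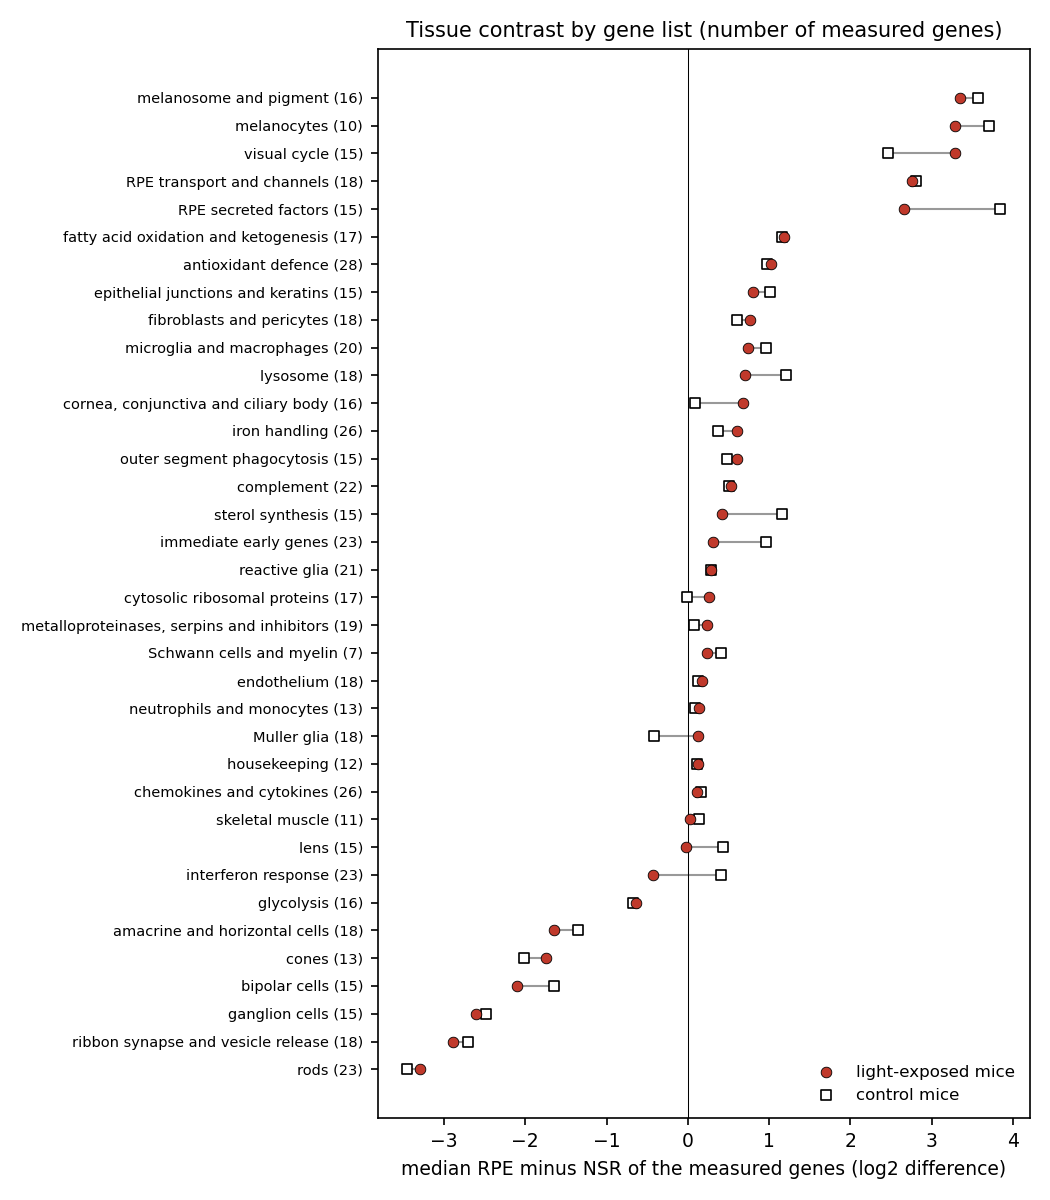
Median log2 difference RPE minus NSR over the measured genes of each list, in light-exposed (circles) and control mice (squares), with the number of measured genes in brackets. RPE and neuron lists keep their side in both groups. Medians move from 3.84 to 2.66 for secreted factors, from 1.16 to 0.43 for sterol synthesis and from 0.41 to -0.42 for the interferon response. The median changes of single genes on these lists were -0.57, -0.75 and -1.59.

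Some genes set the tissues apart in exposed mice but not, or hardly, in control mice. Mmp3, stromelysin, a protease of the extracellular matrix, lay at 10.63, 10.71, 11.28 and 10.42 in RPE light 1 to 4 and at 5.33, 5.14, 5.51 and 5.62 in NSR light 1 to 4. All control arrays of both tissues were at 4.96 to 5.64. It was 41.1-fold higher in exposed RPE (log2 5.36, SE 0.17, limma adjusted p = 9.45e-10), and -0.06 in control mice was not called. Mmp12, the metalloelastase known from macrophages, lay at 10.40, 10.68, 11.47 and 10.00 in exposed RPE and at 6.71 ± 0.11 (SD, n = 4) in exposed NSR, a 15.2-fold difference against 1.02-fold in control mice. Serpinb1a, an inhibitor of neutrophil proteases, was 63.5-fold higher (RPE 10.87 to 11.50, NSR 4.77 to 5.47) against 1.73-fold. Of the 19 measured metalloproteinases, serpins and inhibitors, 9 were higher and 2 lower in exposed RPE (9 and 1 without RPE light 1 and RPE light 2), and 6 changes towards RPE and 5 towards NSR were called. Over all genes 32.5% were higher and 22.9% lower, with changes called for 5.16% towards RPE and 8.05% towards NSR.

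Other genes of this kind stood above their control level in both tissues. Serpina3n, an acute-phase protease inhibitor, lay at 12.55, 12.50, 12.49 and 12.36 in RPE light 1 to 4 and at 9.15, 9.42, 9.42 and 9.18 in NSR light 1 to 4. Every control array stood between 6.05 and 6.70, and the contrast was 9.08-fold after light (SE 0.08, limma adjusted p = 2.94e-10). The gene has near-identical neighbours in its family, whose transcripts the probes may also read. Lcn2, lipocalin 2, which binds bacterial iron carriers and is made by stressed epithelia, lay at 10.05, 10.35, 10.82 and 10.04 in exposed RPE, 7.92, 8.24, 8.32 and 7.75 in exposed NSR and 5.60 to 6.06 in all control arrays, a 4.78-fold difference after light. Timp1, an inhibitor of metalloproteinases, was 3.24-fold higher in exposed RPE (8.51 to 9.66) than in exposed NSR (6.84 to 7.71). RPE light 3 was the highest RPE array for Mmp3, Mmp12, Serpinb1a, Lcn2, Timp1 and Cd68 alike.

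Gsta3, a glutathione transferase, lay at 11.22 to 11.68 in exposed RPE, 7.89 to 8.27 in control RPE and 6.03 to 6.83 in all NSR arrays, and its contrast widened from 2.83-fold to 29.5-fold (change 3.38, SE 0.22, adjusted p = 2.26e-08). Npl, which breaks down sialic acid, widened from 2.71-fold to 12.0-fold and Macc1, a regulator of MET transcription, from 2.47-fold to 11.8-fold. Slc15a3, a peptide transporter of lysosomes, and Nmu, neuromedin U, were higher in exposed RPE by 2.90 and 2.32 on the log2 scale and not called in control mice. Il6, the acute-phase cytokine, was 3.15-fold higher in exposed RPE, with all 4 groups below 5.63, so its fold is uncertain.

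**Figure D4:**
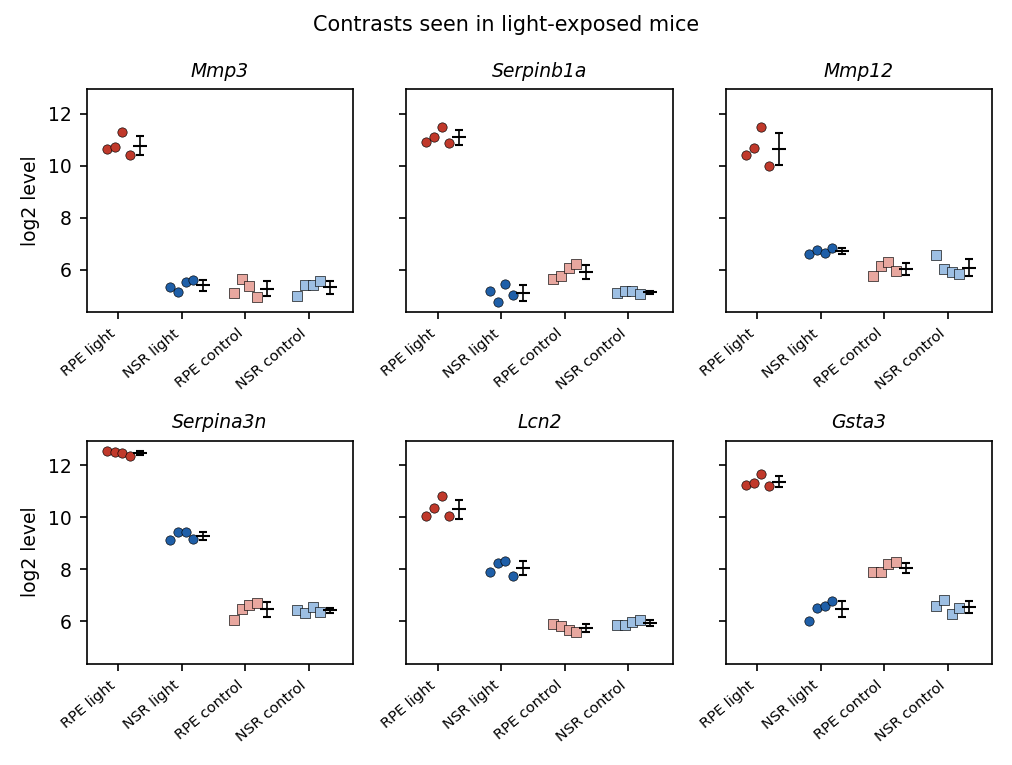
Log2 levels of 6 genes in each array by tissue and treatment, with the mean and SD of 4 arrays. Mmp3, Mmp12 and Serpinb1a are high only in exposed RPE, at 10.00 or above, Serpina3n and Lcn2 stand above their control arrays in both tissues with RPE higher, and Gsta3 is at 11.22 or above in exposed RPE.

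For 148 genes the contrast was called in opposite directions in exposed and control mice. In 101 of them NSR was higher after light; the exposed NSR arrays lay wholly above the control NSR arrays for 67 of these, and the exposed RPE arrays wholly below the control RPE arrays for 49. In the other 47 RPE was higher after light, with exposed RPE arrays wholly above control for 38. Tested by limma against 2-fold in place of no change, 0 genes were called in opposite directions, at adjusted p and at an unadjusted p under 0.05 alike. The ordinary test at an unadjusted p under 0.05 gave 210. Without RPE light 1 and RPE light 2 the count of 148 was 129.

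Transcription factors and signalling genes of the early injury response were among those that turned. Myc, a driver of growth, lay at 7.64, 7.91, 8.39 and 7.68 in NSR light 1 to 4 and at 6.04, 5.79, 6.34 and 6.28 in RPE light 1 to 4. In control mice RPE was the higher tissue, at 5.75 to 6.48 against 5.01 to 5.22. Its log2 difference went from 0.97 to -1.79 (change -2.76, SE 0.23, limma adjusted p = 4.50e-07). Egr2, an immediate early zinc finger gene, went from 0.77 to -1.68, with exposed NSR at 8.79 to 9.11 and exposed RPE at 7.01 to 7.56. Of 23 immediate early genes 17 were higher and 1 lower in control RPE, and 12 higher and 3 lower in exposed RPE (6 lower after quantile normalization). Over all genes 32.5% were higher and 22.9% lower in exposed RPE. On this list 13 changes ran towards NSR and 1 towards RPE, beside 8.05% and 5.16% of all genes. Dusp6, a phosphatase that restrains ERK, stayed 6.43-fold higher in RPE against 15.3-fold.

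Ccl2, which attracts monocytes, lay at 9.84, 10.13, 10.31 and 9.80 in NSR light 1 to 4 and at 8.52, 8.40, 8.68 and 8.33 in RPE light 1 to 4. Both tissues were below 7 in control mice, where RPE was 1.83-fold higher, and after light NSR was 2.90-fold higher (change -2.40, SE 0.26, adjusted p = 6.11e-06). Ednrb, the endothelin B receptor, was 2.58-fold higher in exposed NSR (9.75 to 10.50 against 8.48 to 8.97) and 2.09-fold higher in control RPE. S100a6, a calcium-binding protein, was 2.13-fold higher in exposed NSR, but RPE light 2 at 10.73 lay within the NSR range of 10.56 to 10.78 and the other RPE arrays at 8.90 to 9.44. Without RPE light 1 and RPE light 2 the log2 difference of S100a6 was -1.59 in place of -1.09. Lif, a cytokine that protects photoreceptors, and Il33, an alarmin of Müller glia, were 4.13-fold and 5.42-fold higher in exposed NSR, against no call for Lif and 2.31-fold for Il33 in control mice.

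Reactive glia genes moved both ways, more often towards NSR. Of 21, 11 were higher and 6 lower in exposed RPE, beside 32.5% and 22.9% of all genes. For 4 of them a change towards RPE was called and for 10 a change towards NSR, beside 5.16% and 8.05% of all genes. The list's median change was -0.51 on the log2 scale. Osmr, the receptor for oncostatin M, and A2m, a protease inhibitor of plasma and glia, stayed 11.8-fold and 11.1-fold higher in RPE, against 26.4-fold and 31.0-fold in control mice. Fgf2, a survival factor for photoreceptors, was 3.58-fold higher in exposed NSR against 1.29-fold. Slc14a1, a urea transporter, was 7.77-fold higher in exposed NSR and not called in control mice.

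The interferon response turned from RPE to NSR. Of 23 measured genes, 16 were higher in control RPE and the other 7 were not called. In exposed mice 2 were higher and 14 lower in RPE (11 lower without RPE light 1 and RPE light 2), and 10 genes were called in opposite directions. Of the 23 changes 19 were called, all towards NSR, beside 8.05% of all genes. In exposed mice 32.5% of all genes were higher and 22.9% lower in RPE. The median level of the list was 7.14 to 7.31 in exposed RPE and 6.64 to 7.03 in control RPE, and 8.23 to 8.61 in exposed NSR against 6.16 to 6.36 in control NSR. Centring arrays on all clusters left 3 higher and 12 lower.

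Irgm1, an interferon-induced GTPase, lay at 8.24, 8.20, 8.22 and 8.30 in RPE light 1 to 4 and at 8.63, 8.79, 8.76 and 8.81 in NSR light 1 to 4, with no overlap. In control mice RPE was at 6.81 to 7.39 and NSR at 4.98 to 5.56, so the contrast went from 3.76-fold higher in RPE to 1.42-fold higher in NSR (change -2.42, SE 0.17, limma adjusted p = 7.77e-08). Ddx58, the RNA sensor RIG-I, went from 4.97-fold higher in RPE to 1.32-fold higher in NSR. Mx2, another antiviral GTPase, was 5.03-fold higher in exposed NSR, while its control arrays overlapped. Stat2, which carries the interferon signal to the nucleus, lay at 10.03, 10.07, 9.91 and 9.93 in exposed NSR and at 8.01, 7.62, 7.74 and 7.80 in exposed RPE, 4.58-fold apart, while in control mice both tissues stood at 7.29 to 7.90. Gbp3 and Ifit3 are the pair still higher in RPE, at 4.14-fold and 1.63-fold, down from 7.21-fold and 8.37-fold. Ifit3 is at the edge: its exposed arrays overlapped (RPE 9.27 to 10.00, NSR 8.59 to 9.73), and the call was lost without RPE light 1 (adjusted p = 5.12e-02), RPE light 3 (7.30e-02) or RPE light 4 (5.40e-02), and after quantile normalization (8.15e-02). B2m, the light chain of MHC class I, narrowed from a log2 difference of 3.46 to 1.12, with exposed NSR at 10.88 to 11.31 against 8.47 to 9.03.

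**Figure D5:**
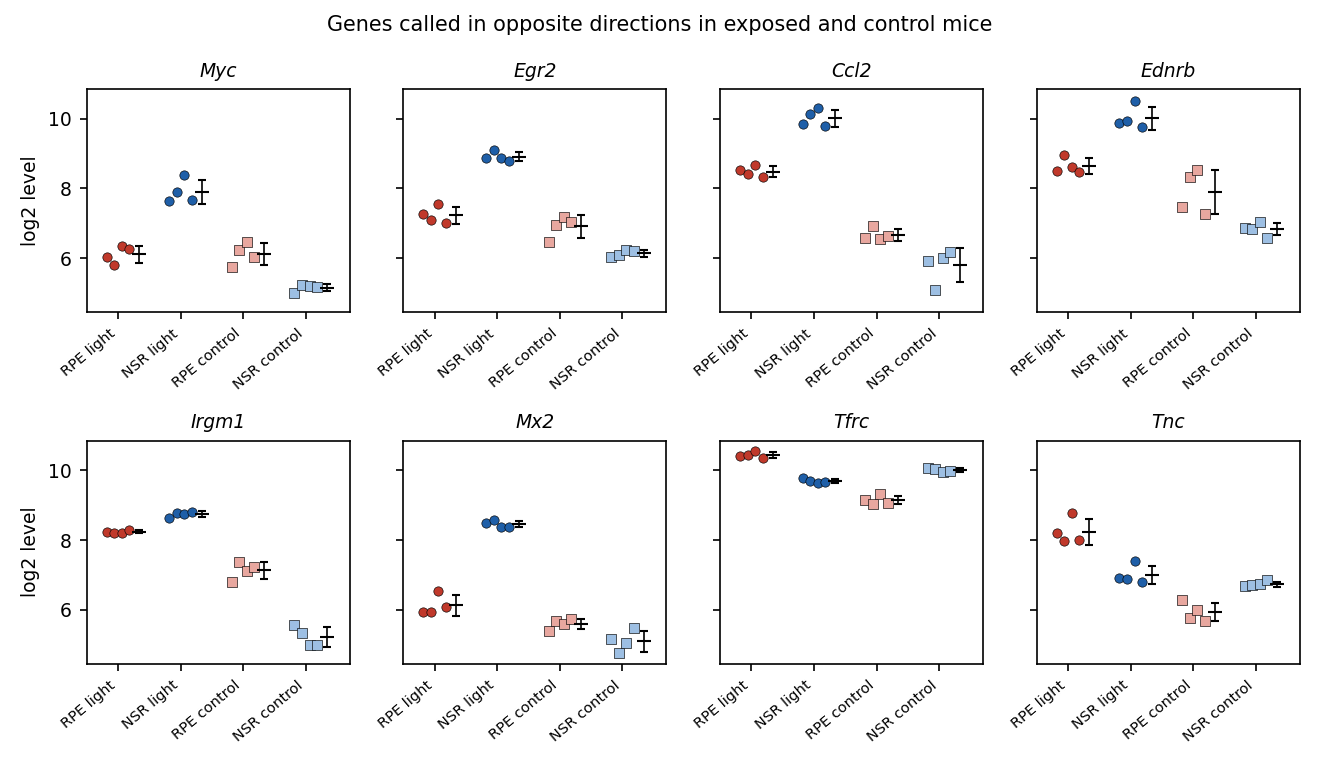
Log2 levels of 8 genes in each array by tissue and treatment, with the mean and SD of 4 arrays. In Myc, Egr2, Ccl2, Ednrb, Irgm1 and Mx2 exposed NSR stands above exposed RPE while control RPE has the higher mean in control mice; Tfrc and Tnc show the opposite turn.

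The core of the interferon-stimulated response element, searched as GAAA, any 2 bases and GAAA on both strands and added to the motifs after values were seen, was in 10 of 21 promoters found for 18 of these 23 genes (47.6%), against 3.4% of all promoters. For the same promoters the shares were 19.0% for TAATCC and 28.6% for TGCTGA. The stretches of Irgm1, Stat2 and Ifit3 are shown with the matches in capitals. The contrast of all 3 genes moved towards NSR, and Ifit3 was still called higher in RPE.
Irgm1, chr11:48871421-48871670 on the minus strand: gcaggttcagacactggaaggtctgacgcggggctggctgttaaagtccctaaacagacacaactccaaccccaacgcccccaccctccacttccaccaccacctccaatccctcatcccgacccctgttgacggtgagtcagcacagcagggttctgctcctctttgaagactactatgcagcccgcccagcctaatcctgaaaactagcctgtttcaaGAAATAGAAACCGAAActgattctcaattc
Stat2, chr10:128270248-128270497 on the plus strand: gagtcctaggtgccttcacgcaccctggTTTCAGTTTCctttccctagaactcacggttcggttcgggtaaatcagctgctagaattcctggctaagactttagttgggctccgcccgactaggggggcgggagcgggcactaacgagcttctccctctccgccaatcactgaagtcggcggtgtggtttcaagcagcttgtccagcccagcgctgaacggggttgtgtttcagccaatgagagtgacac
Ifit3, chr19:34583279-34583528 on the plus strand: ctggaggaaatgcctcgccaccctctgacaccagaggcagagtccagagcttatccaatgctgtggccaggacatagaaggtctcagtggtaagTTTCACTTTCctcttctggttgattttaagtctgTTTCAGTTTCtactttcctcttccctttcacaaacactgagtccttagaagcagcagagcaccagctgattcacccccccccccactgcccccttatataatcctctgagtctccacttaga

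Turns towards RPE were fewer. Tfrc, the transferrin receptor, lay at 10.43, 10.45, 10.56 and 10.35 in RPE light 1 to 4 and at 9.77, 9.71, 9.64 and 9.66 in NSR light 1 to 4, and at 9.05 to 9.33 and 9.95 to 10.08 in control mice. It was 1.68-fold higher in exposed RPE and 1.81-fold higher in control NSR (change 1.61, SE 0.10, limma adjusted p = 1.49e-08). Tnc, the matrix glycoprotein tenascin C, was 2.35-fold higher in exposed RPE and 1.75-fold higher in control NSR. Ptpn2, a tyrosine phosphatase, also turned (1.70-fold higher in exposed RPE), but its other probe cluster differed by -0.64 on the log2 scale in exposed mice, against the sign of the cluster used.

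Iron handling genes were mostly higher in RPE, 17 of 26 with 4 lower, beside 32.5% higher and 22.9% lower over all genes. Ftl1, the ferritin light chain, was 2.86-fold higher against 5.14-fold in control mice. The paired ferroxidases split between the tissues in both groups. Heph, hephaestin, was 7.44-fold higher in exposed RPE, and Cp, ceruloplasmin, 12.7-fold higher in exposed NSR (11.49 to 11.56 against 8.49, 8.48, 7.06 and 7.45 in RPE light 1 to 4) and 5.66-fold in control NSR. Of 22 complement genes 13 were higher and 4 lower in exposed RPE, beside the same shares of 32.5% and 22.9% over all genes. C4b, a component of the classical pathway, was 2.91-fold higher in exposed RPE against 1.38-fold. C3ar1, the receptor of a C3 fragment, and Serping1, the C1 inhibitor, lost contrast, from 6.43-fold to 1.68-fold and from 3.21-fold to a difference that was not called. Vtn, vitronectin, was 4.78-fold higher in exposed NSR and 6.39-fold in control NSR, a change of 0.42 on the log2 scale that was not called (adjusted p = 8.65e-02) but was with the mouse as a block (2.54e-02).

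Among markers of other cell types, those of macrophages and fibroblasts were mostly higher in exposed RPE. So were melanocyte genes, most of which are also on the pigment list. Of 20 microglia and macrophage genes 16 were higher in exposed RPE and the other 4, Tmem119, P2ry12, Trem2 and Ly86, were not called, with list medians of 6.78 to 7.53 in RPE and 5.88 to 6.10 in NSR. Cd68, a lysosomal protein of phagocytes, was at 10.31 to 11.29 in exposed RPE and 7.50 to 8.18 in exposed NSR, and its contrast widened from 3.79-fold to 7.38-fold, while that of Csf1r, the receptor for the macrophage growth factor, narrowed from 20.7-fold to 9.20-fold. Of 18 fibroblast and pericyte genes 15 were higher in exposed RPE, led by Dcn, the matrix proteoglycan decorin, at 41.7-fold. Of 10 melanocyte genes 9 were higher and 1 lower in exposed RPE. Dct, Tyrp1, Tyr, Mlana, Pmel, Slc45a2 and Gpr143 are on this list as well as on the pigment list, so neither list tells RPE cells from melanocytes. Of the melanocyte genes not on the pigment list, Sox10 and Kit were higher and Ednrb lower in exposed RPE (log2 -1.37 for Ednrb). All lists of this paragraph stand beside shares over all genes of 32.5% higher and 22.9% lower. Of 7 Schwann cell and myelin genes 3 were higher and the rest not called. Of 18 endothelial genes 7 were higher and 3 lower (5 and 3 without RPE light 1 and RPE light 2), with Ramp2, a receptor partner for adrenomedullin, 27.0-fold higher in RPE and Kdr and Flt1, both receptors for VEGF, 3.97-fold and 4.07-fold higher in NSR. Of 13 neutrophil and monocyte genes 5 were higher and the rest not called. Lens genes were 4 higher and 3 lower of 15, and corneal and ciliary genes 3 higher and 2 lower of 16, with a list median of 7.27 in RPE light 2 and 6.08 to 6.23 in its replicates. The part of these cells in the gene contrasts above was not tested.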

How the data were processed

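RNA of RPE and NSR from 8 mice was hybridised to Affymetrix Mouse Gene 1.0 ST arrays. The deposited values are log2 levels, and the submitters' processing notes name RMA and Partek 6.6, with no batch given. Of 35556 transcript clusters, 21789 carried 1 gene symbol, 1621 several and 12146 none. The brightest cluster stood for each of 999 genes with more than 1, giving 19938 genes, of which every one was tested. No 2 of the 16 arrays were identical over 120 pairs. With 4 arrays a group, the number of arrays limits the precision.

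RPE minus NSR was fitted by limma 3.58.1 in R 4.3.3 on the 8 arrays of each group of mice, and the change of the contrast on all 16, with Benjamini-Hochberg adjustment over all genes and a call at an adjusted p under 0.05. The code was tested on simulated data. Python 3.11.15, pandas 2.3.3 and matplotlib 3.10.9 did the rest. RPE and NSR of 1 mouse carry the same identifier and so are paired, although the deviations of the 2 arrays of a mouse from their group means correlated at only -0.0106 to 0.0527 over 8 mice. The fit with the mouse as a block is an alternative, as are other scalings, filters, priors, array weights and left-out arrays.

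Members and gene lists were chosen with earlier results of these data known. A rule named 141 genes: the 12 largest contrasts each way, the 3 largest called members of each list, the 10 largest changes each way and 10 genes called in opposite directions, leaving out predicted and clone names. Of 148 genes printed, 59 lie outside it and were chosen after their values were seen, as were those of the rule's genes that are printed.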

Additional observations from a re-analysis of the deposited data

Results flagged for a closer look

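Single arrays that stood far from the other 3 of their group were sought in 296 sets of 4 exposed values of single genes and 74 of gene list medians. Chance gives about 1 in 20 such sets, and 21 and 4 were found. RPE light 1 was high for the retinal genes Neurod4 (8.37), Mapk10 (7.39), Gria2 (6.18), Reep6 (8.59) and Gap43 (7.58), for Kdr (7.38) and for the bipolar cell median (7.23). RPE light 2 was high for Krt12 (10.95) and for the median of the corneal and ciliary list (7.27). RPE light 3 was high for Krt8 (11.49) and low for Car12 (9.78), Timp3 (11.72), Itgb5 (9.16) and Csf1r (8.69), and RPE light 4 was low for the median of the phagocytosis list (8.07). NSR light 3 was high for Ctsd (10.11), Lif (8.59) and the interferon median (8.61). It was low for Ermn (4.73), Rcvrn (10.69), Opn1sw (9.21), Abca8a (7.37), Mfge8 (8.58) and Cp (11.49), while NSR light 1 was low for Neurod4 (11.48).

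The contrast itself differed between exposed and control mice, by limma on all 16 arrays. The log2 change of RPE minus NSR is given for some of the genes of the rule, which are not a ranking of all genes. Towards RPE these were Mmp3 (5.42), Serpinb1a (5.20), Mmp12 (3.96), Gsta3 (3.38), Serpina3n (3.14), Slc15a3 (2.53), Lcn2 (2.45), Nmu (2.33), Macc1 (2.26), Tnc (2.03), Ptpn2 (1.69) and Tfrc (1.61). Towards NSR these were Mx2 (-2.82), Slc14a1 (-2.80), Myc (-2.76), Ddx58 (-2.72), Mt2 (-2.66), Sostdc1 (-2.51), Egr2 (-2.45), Ednrb (-2.43), Irgm1 (-2.42), Ccl2 (-2.40) and S100a6 (-2.36).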

How the results depend on the processing

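Counts over all genes moved by more than 1.5 times under 2 settings. Counts of gene lists under other settings are given above for some lists and settings only, and none is given for the test against 2-fold. With arrays centred on the median of all clusters, an alternative chosen after seeing the data, 9857 genes were higher in exposed and 9690 in control RPE. Tested by limma against 2-fold, 1982 contrasts were called in exposed mice (968 higher, 1014 lower) and 2322 in control mice (1290 and 1032). Under that test 1677 were shared in direction, and 60 changes were called (20 towards RPE, 40 towards NSR). None was opposite, 0 also at an unadjusted p under 0.05.

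With the mouse as a replicate block, 10696 contrasts were called in exposed and 10766 in control mice, 2284 changes, 8635 shared in direction and 142 opposite, all within 1.5 times the values without it. Leaving out 1 array at a time gave 10327 to 10830 calls in exposed mice, 2350 to 2599 changes and 125 to 148 opposite genes. Among single genes the change of Neurod4 ranged from -0.43 without RPE light 1 to 0.53, and without RPE light 1, RPE light 2 and RPE control 2 it reversed to -0.54 (adjusted p = 5.04e-03) and that of Vsnl1 to -1.02 (5.27e-03). There Neurod1, Mapk10, Sag and Snap25 also gained a call; the cause was not tested. Levels below 5.63 limit the size of folds.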
